A study of Mus musculus with 8 samples.

Results

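The copper and cadmium transport genes are 10 genes whose products move copper, cadmium or other divalent metals across membranes, or carry copper inside the cell: Slc31a1, Slc31a2, Atp7a, Atp7b, Atox1, Ccs, Slc39a8, Slc39a14, Slc11a2 and Commd1. Their rows were picked by gene symbol among 35275 genes in the expression table, from a list drawn up for their roles with earlier results of these data known, and all 10 were found. The RNA came from lens fiber cells (FC) of C57BL/6 mice (C57BL/6J in the methods of the study) that were exposed to cigarette smoke (CS) in a whole-body chamber from shortly before birth into young adulthood, and of age-matched, untreated control (Ct) mice housed without smoke. No transgene or deletion is named for either group. Each group had 4 libraries, and each library came from FC of 4 eyes that were dissected away from the epithelium and pooled, so that a replicate is a pool and not a mouse. By the methods of the study, 2 of the 4 pools of each group were male and 2 female, and the labels do not say which. Xist, the RNA of the inactive X chromosome, was at 41.1 to 49.0 FPKM in replicates 3 and 4 of both groups and at 0 to 0.0113 FPKM in replicates 1 and 2, so that same-numbered libraries shared the level of this RNA of female cells.

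Copper enters mammalian cells through CTR1, the product of Slc31a1, and is then held by small proteins that keep it from reacting freely. ATOX1 hands it to the copper ATPases ATP7A and ATP7B, which pump it into the secretory pathway or out of the cell, and CCS hands it to the superoxide dismutase SOD1, an enzyme that removes superoxide in the lens as in other tissues. Cadmium, a toxic metal of tobacco smoke, has no carrier of its own and crosses membranes through carriers of zinc, manganese and iron, among them ZIP8 (Slc39a8), ZIP14 (Slc39a14) and DMT1 (Slc11a2).

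Metal-responsive elements (MRE) are short promoter motifs bound by MTF1, a transcription factor that answers zinc and cadmium, and antioxidant response elements (ARE) are bound by NRF2, a factor that answers oxidants. The MRE core was searched as TGCACNC or TGCGCNC and the ARE core as TGACNNNGC, on both strands, in the 250 bases before the RefSeq start (GRCm38.p6). The promoter table held 9 starts of 7 of the 10 genes. The MRE core lay in 6 of these 9 windows and the ARE core in 4 of 9, against 21.4% and 10.2% of 32851 promoters of all genes, and no matches overlapped each other. The sequences before the starts of Atp7a, Atox1 and Slc31a1 are printed, because the first of these genes had the largest difference upward between the groups among the tested genes, the next the largest difference downward, and the last encodes the main copper importer. Bases inside annotated exons are left out, and capitals mark the motif matches. They read as follows, 5′ to 3′ on the strand of the gene, from chrX:106026974-106027223 for Atp7a (plus strand), chr11:55461240-55461458 for Atox1 (minus strand) and chr4:62360549-62360700 for Slc31a1 (plus strand).
Atp7a: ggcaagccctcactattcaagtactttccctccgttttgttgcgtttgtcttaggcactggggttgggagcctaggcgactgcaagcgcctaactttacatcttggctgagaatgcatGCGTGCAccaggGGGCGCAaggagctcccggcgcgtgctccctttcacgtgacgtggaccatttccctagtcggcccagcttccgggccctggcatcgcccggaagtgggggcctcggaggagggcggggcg
Atox1: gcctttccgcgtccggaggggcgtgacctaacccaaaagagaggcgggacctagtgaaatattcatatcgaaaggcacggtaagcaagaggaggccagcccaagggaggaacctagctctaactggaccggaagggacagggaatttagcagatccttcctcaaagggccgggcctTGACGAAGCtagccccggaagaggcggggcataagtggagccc
Slc31a1: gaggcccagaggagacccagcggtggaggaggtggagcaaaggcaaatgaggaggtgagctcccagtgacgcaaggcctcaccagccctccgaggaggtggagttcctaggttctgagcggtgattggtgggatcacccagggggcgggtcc
Atp7a had 2 MRE matches, both on the opposite strand, at 132 to 126 and at 120 to 114 bases before its start. Atox1 had an ARE match at 74 to 66 bases before its start, and Slc31a1 had no match to either core in its window. Atp7b, not printed, had an MRE match at 157 to 151 bases before its start. A match describes the letters only, and binding of MTF1 or NRF2 was not measured.

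Levels are given as FPKM, the fragments counted on a gene divided by its length and by the mapped reads of its library, so that genes can be compared per length within a library. Whole reads could be recovered from the steps of the FPKM values for 99.8% of the tested genes, and the libraries were estimated at 18100000 to 23300000 fragments, with the CS libraries on average 1.07 times as deep as the Ct libraries. Markers of lens FC were at a steady level in all 8 libraries, with a mean log2 value of 11.40 to 11.49 in Ct and 11.46 to 11.49 in CS. Markers of rod photoreceptors summed to 6.85 to 24.2 FPKM in Ct and 27.0 to 86.9 FPKM in CS, and those of the retinal pigment epithelium to 1.43 to 2.44 FPKM in Ct and 3.62 to 27.0 FPKM in CS, with Best1 of the latter list at 0 in all libraries. The 6 markers of lens epithelium summed to 58.1 to 115 FPKM in Ct and 47.1 to 75.3 FPKM in CS, and the 4 globin markers of erythrocytes to 0.243 to 1.73 FPKM in Ct and 0.407 to 22.6 FPKM in CS, highest in CS replicate 4. The part of RNA from these cells in the values of the copper and cadmium genes was not tested beyond the correlations with epithelium markers given with Slc11a2.

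The copper chaperones were the most abundant transcripts of the set, also with other gene lengths, and those of the ZIP importer Slc39a8 and the copper ATPase Atp7b were near 0. Averaged over the libraries, Ccs made up 45.2% and Atox1 28.3% of the summed FPKM of the 10 genes, while Atp7b and Slc39a8 made up 0.0653% and 0.0615%. The sum was 78.4 ± 4.80 FPKM in Ct and 75.1 ± 4.38 FPKM in CS (SD, n = 4 each, exact permutation p = 0.371). By mean FPKM, Ccs ranked 924 and Atox1 1444 among 35275 genes, and Atp7b and Slc39a8 ranked 15905 and 15978. These shares and ranks rest on the gene lengths behind the deposited FPKM. With GENCODE lengths in their place, Ccs was at 20.5 and Atox1 at 21.8 FPKM.

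**Figure D1:**
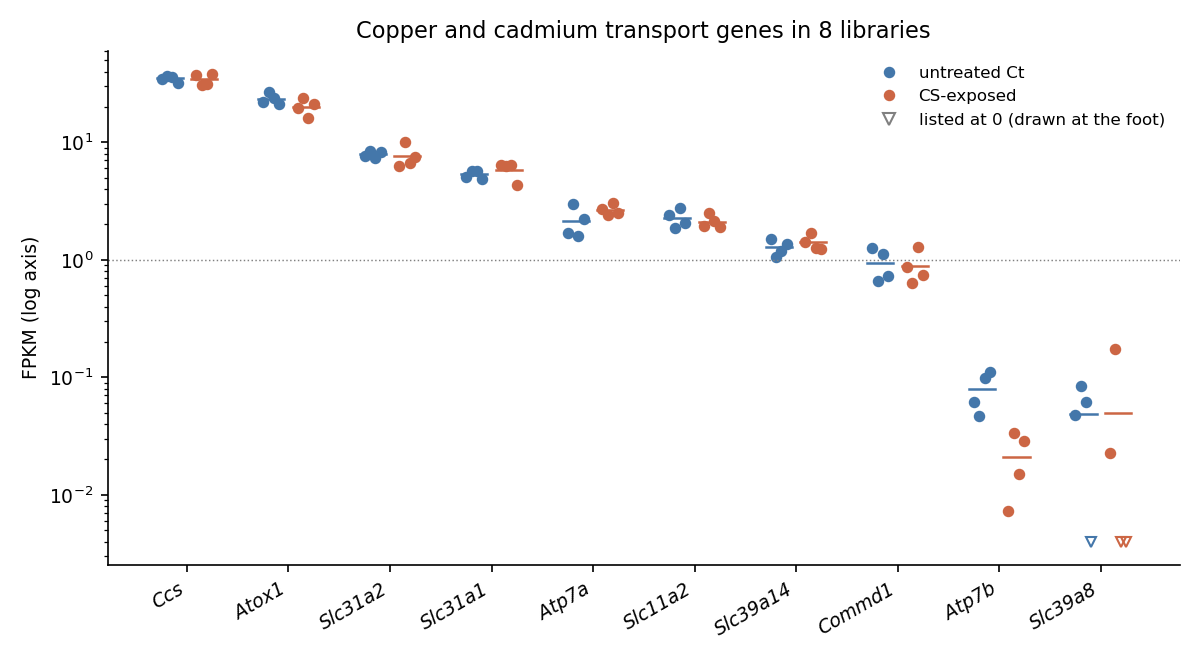
FPKM of the 10 copper and cadmium transport genes on a log axis, with a point for each of the 4 untreated Ct and 4 CS-exposed libraries, short lines for group means, open triangles for libraries at 0 and a dotted line at 1.0 FPKM, the minimum mean for testing. The groups overlap for every gene but Atp7b, whose CS values of 0.00729 to 0.0333 lie below the Ct values of 0.0467 to 0.110.

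Of the 10 genes, 7 reached a group mean of 1.0 FPKM and entered the test across 9794 genes (limma on log2(FPKM + 0.1), two-sided, p-values adjusted by Benjamini-Hochberg over the 9794). Called here means an unadjusted p under 0.05, the level at which the study counts genes. In this test 0 of the 7 genes were called, against 4.83% of all genes tested, and at an adjusted p under 0.05 it was 0 of 7 against 0.0102%. The groups overlapped for all 7 genes, while they did not overlap for 3.08% of the genes tested. Among the 7 genes, 3 were higher and 4 lower in CS, the median log2 difference was -0.03 against 0.0043 over all genes tested, and the median size of the difference regardless of sign was 0.12 against 0.08. Commd1, Atp7b and Slc39a8 were under the minimum. They were compared by an exact permutation test over the 70 assignments of 4 against 4 libraries, whose smallest p is 0.0286, and in a limma fit without the minimum over 18347 genes.

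**Figure D2:**
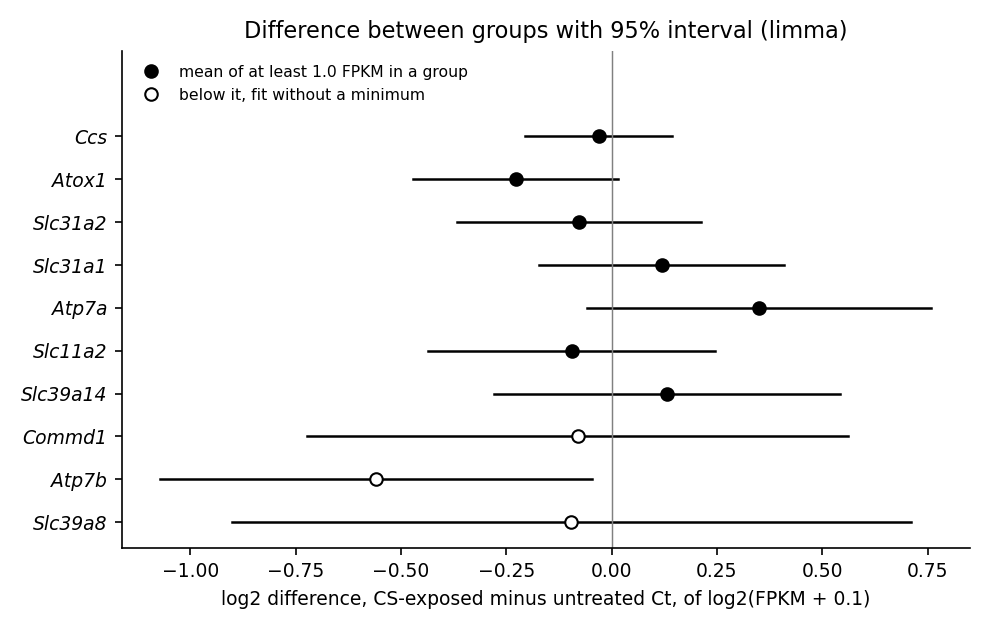
Log2 difference between CS-exposed and untreated Ct libraries on the scale of log2(FPKM + 0.1), with the 95% interval of the limma fit. Filled points are the 7 genes in the test, whose intervals all include 0, and open points the 3 genes under 1.0 FPKM from the fit without a minimum, where only the interval of Atp7b, from -1.07 to -0.05, leaves out 0.

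Slc31a1 (chr4:62360727-62391769, plus strand) encodes CTR1, the high-affinity copper importer of the plasma membrane. Its level was 5.02, 5.71, 5.75 and 4.83 FPKM in Ct replicates 1 to 4 and 6.38, 6.33, 6.39 and 4.32 FPKM in CS replicates 1 to 4. Thus 3 CS libraries lay above every Ct library and CS replicate 4 lay below all of them. The means were 5.33 ± 0.468 FPKM in Ct and 5.85 ± 1.02 FPKM in CS (SD, n = 4 each). The log2 difference was 0.12 with an SE of 0.13 (95% interval -0.17 to 0.41, limma p = 0.387, Benjamini-Hochberg adjusted p = 0.984), and the exact permutation p was 0.543. The call depended on CS replicate 4: without it the log2 difference was 0.26 (limma p = 0.0253, adjusted p = 0.995, exact permutation p = 0.0571), and over all alternatives the limma p ranged from 0.0253 to 0.631. CS replicate 4 was also the library with the highest globin level, whose part in the Slc31a1 value was not tested.

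Slc31a2 (chr4:62262562-62298411, plus strand), a neighbour of Slc31a1, encodes CTR2, a relative of CTR1 that sits mostly on endosomes and lysosomes and affects how much copper these release. It was listed at 7.63, 8.49, 7.35 and 8.32 FPKM in the Ct libraries and at 6.33, 10.1, 6.64 and 7.52 FPKM in the CS libraries. The CS values spread around the Ct values, with replicate 2 above all of these and replicates 1 and 3 below. The log2 difference was -0.08 with an SE of 0.13 (95% interval -0.37 to 0.21, limma p = 0.567, adjusted p = 0.985, exact permutation p = 0.714). Without CS replicate 2 it was -0.22 (limma p = 0.0492, adjusted p = 0.923, exact permutation p = 0.0857), without CS replicate 3 it was -0.019, and without CS replicate 1 it turned to 0.0033 (exact permutation p = 1).

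Atp7a (chrX:106027276-106124926, plus strand) encodes the copper ATPase that is mutated in Menkes disease. Its level was 1.69, 2.96, 1.59 and 2.24 FPKM in the Ct libraries and 2.73, 2.39, 3.03 and 2.49 FPKM in the CS libraries. All CS libraries lay above Ct replicates 1, 3 and 4, and Ct replicate 2 lay within the CS range, so the groups overlapped. Atp7a had the largest difference of the 7 tested genes, with means of 2.12 ± 0.627 and 2.66 ± 0.284 FPKM (SD, n = 4 each) and a log2 difference of 0.35 with an SE of 0.19 (95% interval -0.06 to 0.76). It did not pass the test (limma p = 0.0866, adjusted p = 0.956, exact permutation p = 0.171). A difference of at least this size in either direction was seen in 6.42% of the genes tested. Without Ct replicate 2, through which the groups overlapped, the log2 difference was 0.52 (limma p = 0.00954, adjusted p = 0.917, exact permutation p = 0.0286, the smallest possible with a library left out). Without Ct replicate 3 it was 0.23 (limma p = 0.237, exact permutation p = 0.343), the lowest value over the libraries left out. By limma-voom on the recovered reads, 165 to 305 per library, Atp7a was the only called gene of the 7, with a log2 difference of 0.38 and an adjusted p of 0.954, and 4.96% of all genes were called. Since Atp7a is on the X chromosome, its values were set beside the level of Xist. Atp7a spanned 1.59 to 3.03 FPKM in the 4 libraries with high Xist and 1.69 to 2.96 FPKM in the 4 with Xist near 0, so that these ranges overlapped almost wholly.

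Atp7b (chr8:21992785-22060305, minus strand) encodes the copper ATPase of liver copper excretion that is mutated in Wilson disease. It was near the detection limit in lens FC, with 0.0618, 0.0467, 0.0992 and 0.110 FPKM in Ct and 0.00729, 0.0333, 0.0150 and 0.0284 FPKM in CS. These values rest on 8, 6, 15 and 13 reads in the Ct libraries and on 1, 5, 2 and 4 reads in the CS libraries. All CS libraries lay below all Ct libraries, though the nearest pair, Ct replicate 2 and CS replicate 2, had 6 and 5 reads. Atp7b was the only one of the 10 genes whose groups did not overlap, and among the 18347 genes of the fit without a minimum 2.59% did not overlap, 1.24% with CS lower. The exact permutation p was 0.0286, the smallest that 4 against 4 libraries can give. Without any one of the CS libraries it was 0.0571, and without any one of the Ct libraries 0.0286.

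The means of Atp7b were 0.0795 ± 0.0302 FPKM in Ct and 0.0210 ± 0.0120 FPKM in CS (SD, n = 4 each). Summed over libraries, 42 reads in Ct stood against 12 in CS. Per depth the level in Ct was 3.73 times that in CS, with an exact binomial 95% interval of 1.93 to 7.79 that covers counting error only. In the limma fit without a minimum the log2 difference was -0.56 with an SE of 0.23, on a scale that understates changes of low genes (limma p = 0.0352, adjusted p = 0.950, beside the exact permutation p above). This fit called 4.68% of genes, 2.2% with CS lower. The limma p moved to 0.0747, 0.0790, 0.0854 and 0.0686 without Ct replicates 3 and 4 and CS replicates 1 and 3, in that order. With the replicate number as a block it was 0.0600. By limma-voom without a minimum, which called 5.04% of genes, the log2 difference of Atp7b was -1.83 with an adjusted p of 0.941. In pooled cells, fewer cells that express a gene and less RNA per cell cannot be told apart. Of the 6 epithelium markers only Npnt was called, lower in CS, with a median log2 difference of -0.32 over the 6, and the summed levels of rod and pigment epithelium markers did not overlap between the groups, with CS the higher. Their part in the Atp7b values was not tested.

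**Figure D3:**
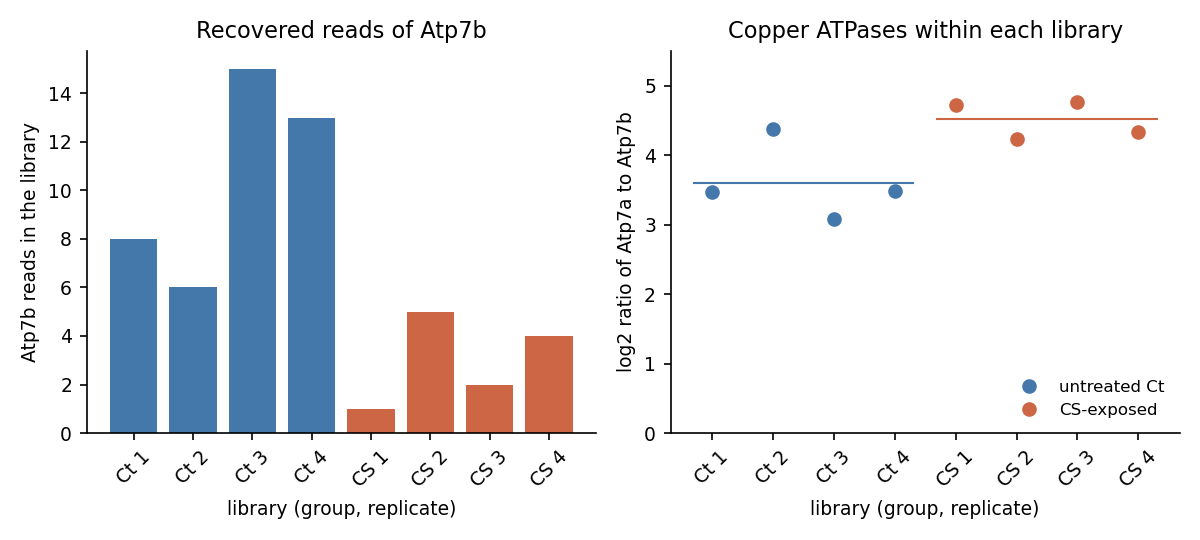
Left, recovered reads of Atp7b in each library as bars from 0, with 6 to 15 reads in untreated Ct and 1 to 5 in CS-exposed libraries. Right, log2 ratio of Atp7a to Atp7b within each library, from FPKM + 0.1, with lines at the group means of 3.60 in Ct and 4.51 in CS, where Ct replicate 2 lies among the CS libraries.

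Within each library the log2 ratio of Atp7a to Atp7b was 3.47, 4.38, 3.08 and 3.48 in Ct and 4.72, 4.23, 4.77 and 4.33 in CS. The groups overlapped through Ct replicate 2. The ratio was higher in CS by 0.91, from 3.60 ± 0.55 to 4.51 ± 0.27 (SD, n = 4 each), which did not pass an exact permutation test (p = 0.0857, adjusted p = 0.343 over 4 ratios). The low level of Atp7b makes this ratio depend on the pseudocount: with 0.01 in place of 0.1 the difference was 1.92 (exact permutation p = 0.0286). Without Ct replicate 2, through which the groups overlapped, it was 1.17 (exact permutation p = 0.0286, the smallest possible with a library left out).

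Atox1 (chr11:55446641-55461239, minus strand) encodes the chaperone that delivers copper to both ATPases. Its level was 22.2, 26.7, 23.8 and 21.1 FPKM in the Ct libraries and 19.4, 23.8, 16.2 and 21.1 FPKM in the CS libraries. In CS, replicates 1, 3 and 4 lay below all Ct libraries, with replicate 4 just below the lowest of these, and replicate 2 lay among the Ct libraries. The means were 23.5 ± 2.41 and 20.1 ± 3.17 FPKM (SD, n = 4 each), and the log2 difference of -0.23 with an SE of 0.11 had the smallest p of the 7 tested genes without passing the test (95% interval -0.47 to 0.02, limma p = 0.0645, adjusted p = 0.956, exact permutation p = 0.143). Leaving out CS replicate 2 gave -0.31 (limma p = 0.0136, adjusted p = 0.910, exact permutation p = 0.0571) and leaving out Ct replicate 4 gave -0.28 (limma p = 0.0438, adjusted p = 0.945, exact permutation p = 0.143). Without CS replicate 3 the log2 difference was -0.13 (limma p = 0.208, exact permutation p = 0.343). With the replicate number as a block the limma p of Atox1 was 0.0331 (adjusted p = 0.886), in a fit that called 5.33% of all genes. The genes whose log2 values followed Atox1 most closely over the 8 libraries were Ammecr1l (Pearson r = 0.96), Fam162a (r = 0.95) and Fam111a (r = 0.93). They are the highest of 9793 genes compared, of which 15 had an r of at least 0.9, and are given as a description.

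Ccs (chr19:4825366-4839332, minus strand), the chaperone that loads copper into SOD1, was the most abundant gene of the set on the deposited scale and the one with the smallest spread within groups. It was at 34.6, 36.7, 36.1 and 32.3 FPKM in Ct and at 37.0, 30.5, 31.6 and 38.0 FPKM in CS, so that the Ct range lay inside that of CS. The means were 34.9 ± 2.00 and 34.3 ± 3.78 FPKM (SD, n = 4 each). The log2 difference was -0.03 with an SE of 0.08 and a 95% interval of -0.21 to 0.14 (limma p = 0.706, adjusted p = 0.991, exact permutation p = 0.8). Its client Sod1 was at 441 ± 17.2 FPKM in Ct and 440 ± 13.8 FPKM in CS (SD, n = 4 each). The log2 ratio of Atox1 to Ccs within a library was -0.58 ± 0.079 in Ct and -0.77 ± 0.28 in CS (exact permutation p = 0.229, adjusted p = 0.457). Without CS replicate 2, through which the groups overlapped, the difference of -0.20 became -0.33 (exact permutation p = 0.0286, the smallest possible with a library left out).

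Slc39a8 (chr3:135825279-135888572, plus strand) encodes ZIP8, an importer of zinc and manganese that also carries cadmium. It was hardly detected in lens FC: 4, 7, 6 and 0 reads were found in the Ct libraries and 2, 17, 0 and 0 in the CS libraries. A count of 0 allows up to 3 reads, which is 0.0394 FPKM in Ct replicate 4 and 0.0347 and 0.0329 FPKM in CS replicates 3 and 4. CS replicate 2 alone, at 0.175 FPKM, held 47.2% of the 36 reads of all libraries. The sums were 17 reads in Ct and 19 in CS, which per depth is a ratio of CS to Ct of 1.05 (exact binomial 95% interval 0.516 to 2.15, counting error only), and the exact permutation p was 0.914. This near equality rests on CS replicate 2, without which 2 CS reads stood against 17 Ct reads, with a log2 difference of -0.44 (exact permutation p = 0.171). The spread within groups was 2.81 times that of counting alone.

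Slc39a14 (chr14:70303469-70351425, minus strand) encodes ZIP14, an importer of iron, zinc and manganese that carries cadmium as ZIP8 does. It was present at a low level, at 1.50, 1.05, 1.18 and 1.37 FPKM in Ct and at 1.43, 1.70, 1.26 and 1.24 FPKM in CS. Only CS replicate 2 lay above all Ct libraries. The log2 difference was 0.13 with an SE of 0.19 (95% interval -0.28 to 0.54, limma p = 0.497, adjusted p = 0.985, exact permutation p = 0.4), and it ranged from 0.042 without CS replicate 2 to 0.21 without Ct replicate 1. Within a library, the log2 ratio of Slc39a14 to Slc39a8 was 3.24 ± 0.54 in Ct and 3.46 ± 0.50 in CS (SD, n = 4 each, exact permutation p = 0.571), with Slc39a14 the higher in all 8 libraries. Slc39a8 lies below the pseudocount in all libraries but CS replicate 2, and the ratio depends on it: the difference between the groups was 0.23 with a pseudocount of 0.1 and 0.81 with 0.01, and 0.029 to 0.48 when each library was left out.

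Slc11a2 (chr15:100387898-100425072, minus strand) encodes DMT1, a proton-coupled importer of ferrous iron and other divalent metals, cadmium included. The gene shares 402 exon bases with Gm5475 on the opposite strand, and whether the counting used the strand is not given in the sources used here. It was at 2.39, 1.88, 2.78 and 2.05 FPKM in Ct and at 1.92, 2.49, 2.15 and 1.90 FPKM in CS, with every CS value inside the Ct range. The log2 difference was -0.09 with an SE of 0.16 (95% interval -0.44 to 0.25, limma p = 0.556, exact permutation p = 0.571). Of the 7 tested genes, Slc11a2 had the strongest correlation with the mean log2 value of the epithelium markers over the 8 libraries (Pearson r = 0.73, permutation p = 0.0306, adjusted p = 0.214 over 7 genes, Spearman rho = 0.52, permutation p = 0.197, adjusted p = 0.567). It rested on the 2 libraries farthest from the median of the epithelium score, without which r was 0.26, and within groups r was 0.71. The Pearson r of the other 6 genes ranged from -0.40 to 0.40, and no gene passed the adjustment.

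Commd1 (chr11:22896136-22982382, minus strand) encodes a member of the COMMD family that takes part in the sorting of ATP7A and ATP7B, and its loss causes copper storage disease in dogs. It was listed at 1.27, 0.663, 1.13 and 0.723 FPKM in Ct and at 0.873, 0.634, 1.30 and 0.749 FPKM in CS. The values fell over the same range in both groups, with means of 0.946 ± 0.299 and 0.888 ± 0.289 FPKM (SD, n = 4 each, exact permutation p = 0.857). It shares 706 exon bases with Gm28048 on the same strand and Zrsr1 on the opposite strand, so its FPKM are uncertain.

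Over the 8 libraries the order of the levels was Ccs, Atox1, Slc31a2, Slc31a1, Atp7a, Slc11a2, Slc39a14, Commd1, Atp7b and Slc39a8. Of the 9 pairs of neighbours, 7 differed beyond their spread (exact sign-flip test over 8 libraries, adjusted p of 0.0141 or 0.0201). Atp7a and Slc11a2 did not (log2 difference 0.10, Atp7a higher in 5 of 8 libraries, exact p = 0.586, adjusted p = 0.659), nor did Atp7b and Slc39a8 (0.06, higher in 5 of 8, exact p = 0.719). CTR2 RNA was above CTR1 RNA in 7 of 8 libraries on the deposited scale. The order depends on the gene lengths behind the deposited FPKM, which are not stated. The values imply 541 bases for Atox1 and 6505 for Atp7b, as in the exon unions of GENCODE, but 1057 for Ccs against 1782 there, 4900 for Atp7a against 8734 and 5117 for Slc39a14 against 10550. With the exon unions, Atox1 at 21.8 and Ccs at 20.5 FPKM exchanged places and did not differ beyond their spread (exact p = 0.352, adjusted p = 0.396). Slc11a2 came before Atp7a, higher in 4 of 8 libraries, and Commd1 before Slc39a14, higher in 3 of 8. Neither pair differed beyond its spread (exact sign-flip test, adjusted p = 0.396 and 0.719). Slc31a2 was then above Slc31a1 in 6 of 8 libraries, which did not pass (adjusted p = 0.0563, exact sign-flip test), and 4 of 9 pairs of neighbours differed. Differences between the groups do not depend on these lengths, except through the pseudocount. The within-library log2 ratio of Slc31a1 to Slc31a2 was -0.57 ± 0.17 in Ct and -0.37 ± 0.41 in CS (SD, n = 4 each, exact permutation p = 0.4), and the difference of 0.20 ranged from 0.069 without CS replicate 1 to 0.34 without CS replicate 4. The spread within groups, as a coefficient of variation, was lowest for Ccs at 8.74% and highest for Slc39a8 at 133%. For each of the 10 genes it was above the spread that counting alone gives, from 1.19 times it for Atp7b to 3.18 times it for Atp7a.

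**Figure D4:**
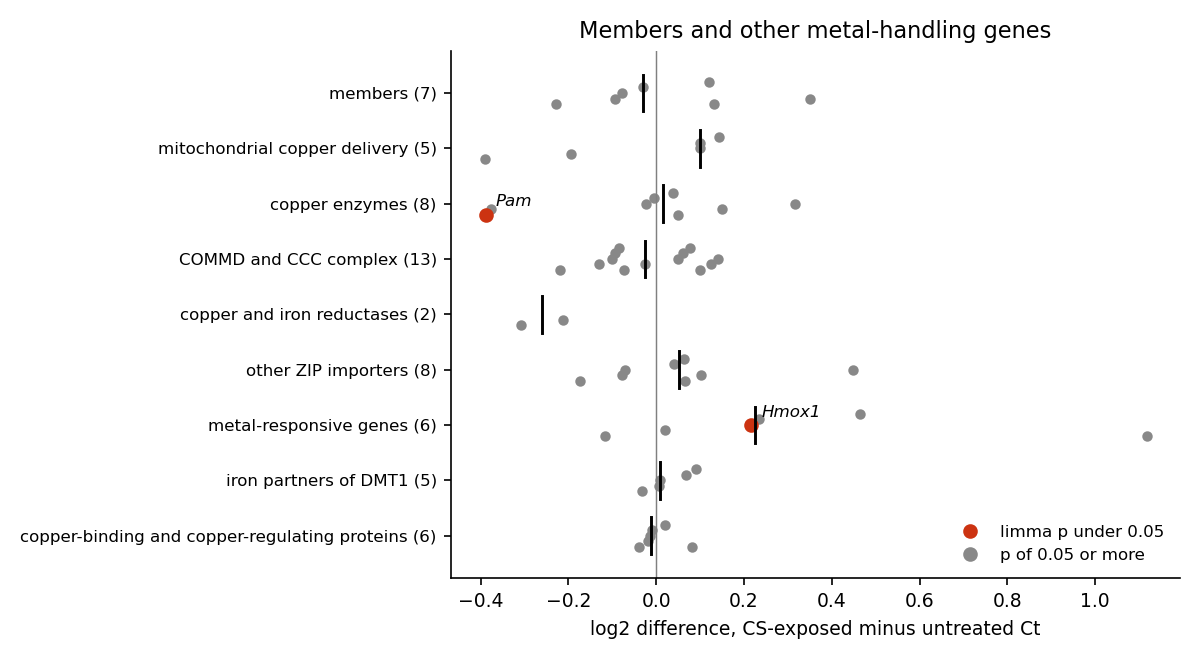
Log2 difference between CS-exposed and untreated Ct libraries for the tested genes of the transport set and of 8 other lists of metal-handling genes, with the number tested in brackets and a vertical bar at each list's median. Of 53 genes in the 8 lists, Hmox1 at 0.22 and Pam at -0.39 had an unadjusted limma p under 0.05.

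The other genes of copper and cadmium handling were described as 8 lists of 81 genes, of which 53 were tested and 6 were listed at 0 in all libraries. Called were 2 of the 53, or 3.77%, against 4.83% of all genes tested, with 29 higher and 24 lower and a median log2 difference of 0.02. The 29 hold Mt2 and Slc39a2 and the 24 hold Sco1, which each passed the minimum only through the group in which they were higher. Hmox1, the heme oxygenase that is induced by oxidants and cadmium, was at 298, 318, 260 and 299 FPKM in Ct and at 327, 326, 361 and 348 FPKM in CS. All CS libraries lay above all Ct libraries (log2 difference 0.22 with an SE of 0.06, limma p = 0.00400, adjusted p = 0.956, exact permutation p = 0.0286, the smallest possible). Of all genes tested, 3.08% had groups that did not overlap. Pam, a copper enzyme that amidates peptides, was at 7.72, 8.36, 10.9 and 7.25 FPKM in Ct and at 5.96, 6.83, 8.49 and 4.92 FPKM in CS, and 3 CS libraries lay below all Ct libraries (log2 difference -0.39 with an SE of 0.16, limma p = 0.0366, adjusted p = 0.956, exact permutation p = 0.143). In each group Pam was highest in replicate 3, as was the mean log2 value of the epithelium markers (3.47 in Ct, 2.89 in CS). Their part in the Pam values was not tested. Of the alternatives, leaving out Ct replicate 2 or 3 or CS replicate 1 or 4 and the fit without a variance trend ended the call of Pam, and Hmox1 kept an unadjusted p under 0.05 in all of them.

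Among the metal-responsive genes 6 of 9 were tested, with a median log2 difference of 0.22 beside 0.0043 over all genes tested, 5 higher and 1 lower, and Hmox1 alone called. This count holds Mt2, which passed the minimum only through CS, and without it 4 were higher and 1 lower, with Hmox1 as the middle value. The most abundant were Hmox1, at 317 FPKM over all libraries, and Gclc, the catalytic subunit of glutathione synthesis, at 26.0 FPKM. The metallothioneins Mt1 and Mt2, small proteins that bind cadmium, zinc and copper, are named here after their values were seen. Mt1 was at 4.38 ± 1.51 FPKM in Ct and 6.09 ± 2.19 FPKM in CS (SD, n = 4 each, limma p = 0.128, adjusted p = 0.956, exact permutation p = 0.229). Mt2 ranged from 0.0774 to 2.55 FPKM in Ct and from 0.779 to 1.88 FPKM in CS, so that the Ct range enclosed that of CS (limma p = 0.121, adjusted p = 0.956, exact permutation p = 0.257). The upper end in Ct is replicate 2, without which the log2 difference of Mt2 was 1.82 in place of 1.12 (adjusted p = 0.852). Since Mt2 passed the minimum through the group in which its mean is higher, its difference is not independent of the minimum.

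Copper-using enzymes had 8 of 19 genes tested, with mt-Co1, a mitochondrially encoded subunit of cytochrome c oxidase, at 882 FPKM and Sod1 at 441 FPKM as the most abundant, a median log2 difference of 0.02 and only Pam called. Mitochondrial copper delivery had 5 of 8 tested, a median of 0.10 and none called, led by Slc25a3, a mitochondrial carrier of phosphate and copper, at 52.7 FPKM and Coa6, an assembly factor of cytochrome c oxidase, at 32.1 FPKM. In this list Sco1, a copper chaperone of cytochrome c oxidase that is named after its values were seen, was at 1.03, 1.27, 1.01 and 1.07 FPKM in Ct and at 0.755, 0.920, 0.684 and 0.894 FPKM in CS, with all CS libraries below all Ct libraries (log2 difference -0.39, limma p = 0.0960, adjusted p = 0.956, exact permutation p = 0.0286). Groups did not overlap for 3.08% of all genes tested. Sco1 reached 1.0 FPKM only in Ct, the group in which it is higher, so that the minimum favoured a difference in this direction. The fit without a variance trend, which ended the call of Pam, called Sco1 (adjusted p = 0.854). The COMMD proteins and their CCC complex, which recycles membrane proteins from endosomes, had 13 of 14 tested, a median of -0.02 and none called. There Commd3 at 48.0 FPKM and Commd6 at 19.5 FPKM stood well above Commd1.

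Of the other ZIP importers, 8 of 12 were tested with a median log2 difference of 0.05 and none called. The zinc carriers Slc39a13 at 14.3 FPKM and Slc39a1 at 8.20 FPKM were the most abundant of them, both above Slc39a14 and Slc39a8. Slc39a2, named after its values were seen, had the largest log2 difference of this list, 0.45. It reached 1.0 FPKM only in CS (mean 1.07 FPKM, 0.747 FPKM in Ct), so that the minimum favoured a difference in this direction. The reductases that prepare copper and iron for import were low, with 2 of 5 tested, Cybrd1 at 1.68 FPKM and Steap1 at 1.33 FPKM, and a median of -0.26. The iron partners of DMT1, led by the ferritin chains Ftl1 at 5083 FPKM and Fth1 at 1047 FPKM, had 5 of 7 tested and a median of 0.01. Copper-binding and copper-regulating proteins, led by the matrix protein gene Sparc at 313 FPKM and the amyloid precursor gene App at 140 FPKM, had 6 of 7 tested and a median of -0.01. No gene was called in these last 3 lists.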

How the data were processed

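Total RNA of 8 pools of lens FC, 4 CS-exposed and 4 untreated Ct, was sequenced as paired reads of 150 bases from libraries of the NEBNext Ultra RNA kit. Per the submitters' processing notes, reads were aligned to GRCm38 with STAR 2.5 and counted on genes with HTSeq 0.6.1. The authors deposited FPKM for each library, and the release of the annotation and the gene lengths behind them are not given in the sources used here. The deposited table also holds group means and the authors' own fold changes, p-values and adjusted p-values, which were not used.

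The 9794 genes that reached a mean of 1.0 FPKM in a group were compared, as log2(FPKM + 0.1), by a two-sided moderated test (lmFit, then eBayes with trend) of limma 3.58.1 in R 4.3.3, and p-values were adjusted by Benjamini-Hochberg over these genes. The fit without a minimum took the 18347 genes above 0 in at least 2 libraries. Fold changes on this scale understate changes of low genes. Members below the minimum, within-library ratios and levels of neighbouring genes were compared with exact tests over libraries. Whole reads were recovered from the steps of FPKM values, with a tolerance of 0.05 reads, for 9773 of 9794 tested genes. The estimated fragments per library rest on GENCODE gene lengths, with which 648 of 9054 genes pointed to a common value. The median value rested on 313 reads, and intervals from reads cover counting error only. p-values measure the spread between pools. Gene coordinates are of GRCm38, and promoter sequences are RefSeq's for GRCm38.p6. Scripts used Python 3.11.15, numpy 2.4.6, pandas 2.3.3, scipy 1.17.1 and matplotlib 3.10.9, and the fits and the recovery of reads were tested on simulated data.

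The 10 genes and all lists were chosen with earlier results of these data known. Named were all 10 genes, from each of the other lists the genes with an unadjusted limma p under 0.05 and the 2 with the highest mean FPKM, and the 3 genes most like the tested member with the smallest p. Mt1, Mt2, Sco1 and Slc39a2 are outside this rule and were added after their values were seen, and marker genes and Xist are named where a result turns on them. Alternatives were pseudocounts of 1 and 0.01, a minimum of 0.5 FPKM or none, median centring, quantile normalization, eBayes with a robust trend or with no trend, the replicate number as a block, limma-voom on recovered reads, and leaving out each library. The exact tests of single genes without a library, limma-voom without a minimum and several settings of the low genes were chosen after seeing the data. Same-numbered libraries come from different mice, and the main fits ignore the number. The proteome, metabolome and metal measurements of the study were not analysed here.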

Additional observations from a re-analysis of the deposited data

Results flagged for a closer look

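In each of the 10 genes, the 4 ratios and the epithelium score, the 4 libraries of a group were checked for a library far from the other 3 by Dixon's criterion, which by chance marks about 1 in 20 groups. It marked 3 of 30. Slc31a1 was at 4.32 FPKM in CS replicate 4, against 6.33 to 6.39 FPKM in the other CS libraries. Slc39a8 was at 0.175 FPKM in CS replicate 2, against 0 to 0.0225 FPKM in the other CS libraries. The log2 ratio of Slc39a14 to Slc39a8, which shares the Slc39a8 value, was 2.71 in CS replicate 2, against 3.64 to 3.76 in the others.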

How the results depend on the processing

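Of the 7 tested transport genes 0 were called. The count was 1 of 10 without a minimum (Atp7b, where 4.68% of all genes were called). By limma-voom without a minimum, chosen after seeing the data, it was 2 of 10 (Atp7a and Atp7b, 5.04% of all genes). Of the 7 it was 1 with the replicate block (Atox1, 5.33% of all genes) and 1 by limma-voom on recovered reads (Atp7a, 4.96%). When each library was left out it was 0 to 2 of the 7, with 4.26% to 5.32% of all genes called. In no setting did a transport gene reach an adjusted p under 0.05. Of the 53 other metal-handling genes tested 2 were called, against 4 with the replicate block (5.33% of all genes) and 4 of 73 by limma-voom without a minimum (5.04%). When each library was left out, 1 to 6 of the 53 were called (6 without Ct replicate 1, 4 without CS replicate 3 and 1 without CS replicate 4). In these fits 4.26% to 5.32% of all genes were called. The difference in the log2 ratio of Atp7a to Atp7b was 1.92 with a pseudocount of 0.01 and 0.74 to 1.17 when each library was left out, and that of Atox1 to Ccs was -0.33 to -0.13. Under the replicate block the exact p of the first ratio was 0.25, where 4 pairs cannot give less than 0.125.

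Log2 differences turned sign only when a library was left out, each with a p over 0.7: Slc31a2 (-0.22 to 0.0033), Ccs (-0.083 to 0.023, with 0.0060 as another positive value), Slc39a8 (-0.44 to 0.050, with 0.020), Slc11a2 (-0.18 to 0.0024) and Commd1 (-0.26 to 0.066, with 0.011 and 0.049). For Slc39a8 and Commd1 these settings were chosen after seeing the data. The log2 difference of Atp7b was negative in all 10 settings tried. It was -0.65 to -0.48 when each library was left out and -1.83 by limma-voom without a minimum. Since all CS libraries lay below all Ct libraries, leaving out a library could not turn the sign. The replicate block, under which Atp7b lost its call, left the difference at -0.56 by design. The direction of Atp7b was thus not tested by leaving out libraries or by the block. The order of levels gave 7 of 9 differing neighbours with other pseudocounts and without each library, and 4 of 9 with exon union lengths (chosen after seeing the data), and no gene passed the adjusted test with epithelium markers with other pseudocounts or without each library.

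The correlation of deviations between same-numbered libraries was 0.012 to 0.161, over 0.1 in 2 of 4 pairs, and 6 of 8 libraries correlated best with their own number. This does not meet the criterion for pairs, although same-numbered libraries also shared their Xist level. In 4 of 4 same-numbered pairs CS was lower for Atox1, Pam and Atp7b. For Atp7b this follows from groups that did not overlap. The block gave adjusted p values of 0.886 for Atox1, newly called, and 0.463 for Pam, and an unadjusted p of 0.0600 (limma) for Atp7b, whose exact permutation p without the block was 0.0286. Atp7b and Slc39a8 rest on 0 to 17 reads per library.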
